A study of Tursiops truncatus with 17 samples.

Results

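Voltage-gated calcium channels open when a membrane depolarises and let calcium into the cell. This account follows the transcripts of 10 channel genes, taken by symbol from the 21265 genes in the files: CACNA1A, CACNA1B, CACNA1C, CACNA1D, CACNA1E, CACNA1G, CACNA1I, CACNA2D1, CACNA2D3 and CACNB4. Each symbol matched 1 gene, and all 10 genes passed the filter on low read numbers. The samples were frozen archived necropsy pieces of cerebral cortex from 17 bottlenose dolphins (Tursiops truncatus, labelled WT), 1 library per dolphin. Of these, 8 were labelled with the non-bloom season and 9 with the bloom season, the name the submitters gave to the time of collection. The labels give no treatment beyond the season, and no age, sex, date or cause of death, so season and whatever differed alongside it cannot be told apart. Dolphins are numbered within each group in the order of their accessions.

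The channel is built around 1 large alpha-1 subunit, which forms the pore and carries the voltage sensor. In the cortex CACNA1A (P/Q-type), CACNA1B (N-type) and CACNA1E (R-type) serve transmitter release and dendritic calcium entry, CACNA1C and CACNA1D (L-type) couple depolarisation to gene expression in the nucleus, and CACNA1G and CACNA1I (T-type) open near the resting potential and favour burst firing. The P/Q, N, R and L types take on auxiliary subunits, a cytoplasmic beta subunit such as CACNB4 and an extracellular alpha-2-delta subunit such as CACNA2D1 or CACNA2D3, which raise the number of channels at the surface; alpha-2-delta-1 is the binding site of gabapentin. T-type pores work without them in most settings.

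All values below are the deposited normalised values, which are reads scaled to a common library size with edgeR's TMM factors (trimmed mean of M values). A season difference is the mean of log2(value + 1) in bloom minus that in non-bloom dolphins, tested with limma over 13548 genes. It was called where the Benjamini-Hochberg adjusted p was under 0.05. The values are not divided by transcript length, so levels are compared between dolphins for 1 gene and not between genes.

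Of the 10 channel genes, CACNB4 and CACNA2D3 fell in the bloom season and 0 rose. The other 8 did not pass, and all 10 differences were negative. The call of 2 of 10 stands beside 4.69% of all tested genes called lower and 4.47% called higher in the same fit. The median difference of the 10 genes was -0.92, against -0.0034 over all genes tested. edgeR on the reads recovered from the values called 0 of the 10, with 2.55% of all genes called lower and 6.07% higher. Its median difference over the 10 genes was -0.62, against 0.031 over all genes. At an unadjusted p under 0.05 limma had 4 of the 10 lower and 0 higher, beside 19.1% and 16.4% of all genes, and at an adjusted p under 0.1 it had 4 lower, beside 14.9%. CACNB4, CACNA2D3 and CACNA2D1 were called lower by DESeq2 (beside 9.04% of all genes), by voom (16.5%) and by limma with the mitochondrial read ratio as a covariate (10.5%). In pieces of whole cortex, fewer cells of a type and less RNA per cell cannot be told apart.

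Libraries held from 7680050 to 15635292 reads. The bloom 5, 6 and 9 libraries stood apart: transcripts of the mitochondrial genome took 57.0%, 33.5% and 77.2% of their reads, against 1.47% to 22.1% in the other 14, so that 4039857, 6719605 and 1753299 reads came from the remaining genes. Most channel genes were at their lowest in these libraries. Ranked over the 17 dolphins, bloom 5 was among the lowest 3 for all 10 channel genes, and bloom 6 and bloom 9 for 8 each. Results on the channel genes are therefore given with and without these libraries; without them 0 of the 10 genes passed, beside 0.659% of 13663 genes called lower and 1.68% called higher, and the median of the 10 differences was -0.14, against 0.011 over all genes.

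**Figure D1:**
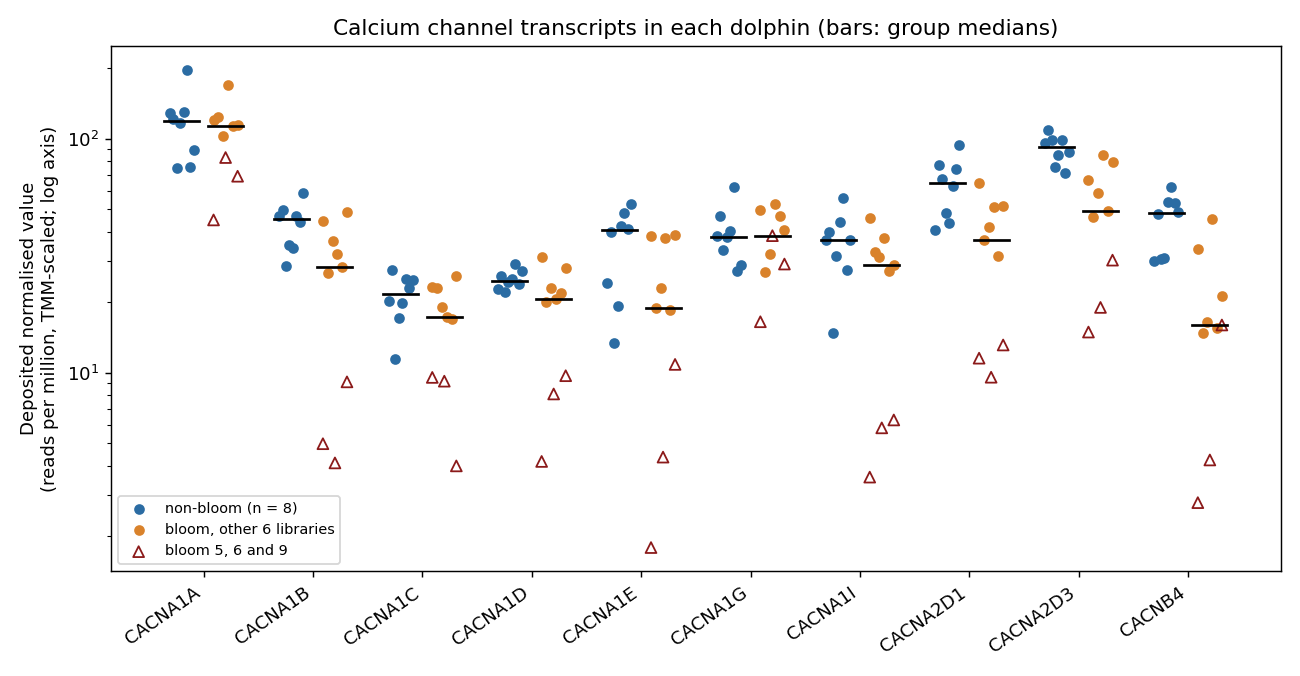
Deposited normalised value (vertical log axis) of each channel gene in each dolphin, with non-bloom in blue, bloom in orange, bloom 5, 6 and 9 as open triangles and group medians as bars. CACNA1A and CACNA1G medians lay close together in the 2 seasons (119 and 113, 38.1 and 38.5), whereas CACNB4 had medians of 48.0 and 16.0; heights of different genes are not comparable because the values are not divided by length.

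CACNB4 encodes the beta-4 subunit, a cytoplasmic partner abundant in cerebellum and forebrain neurons, and its gene row lies on GeneScaffold_2270 from 56630 to 198568, in the coordinates of the files, whose build the labels do not name. In non-bloom dolphins it ran from 30.0 through a median of 48.0 to 62.3. In bloom dolphins it ran from 2.79 through 16.0 to 45.4. The groups overlapped through bloom 1 and bloom 4, at 33.8 and 45.4, and the 7 other bloom dolphins lay below every non-bloom dolphin. The means were 44.6 ± 12.5 (SD, n = 8) and 18.9 ± 13.5 (SD, n = 9), a log2 difference of -1.49 (SE 0.40, 95% interval -2.32 to -0.66, limma adjusted p = 0.0365; edgeR adjusted p = 0.0526). Among the 6 bloom dolphins outside the libraries that stood apart, the values ran from 14.8 to 45.4. The difference without bloom 5, 6 and 9 was -0.91 (SE 0.25, limma adjusted p = 0.0611).

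CACNA2D3, an alpha-2-delta subunit of neurons that is tied to hearing and pain sensing, lies on GeneScaffold_161 from 215447 to 987278. It ran from 71.2 through a median of 91.8 to 109.5 in non-bloom dolphins and from 14.9 through 49.3 to 85.0 in bloom dolphins. Only bloom 4 (85.0) and bloom 8 (79.4) reached into the non-bloom range, and all 9 bloom dolphins lay below the non-bloom median. Its means were 90.2 ± 12.8 (SD, n = 8) and 49.9 ± 25.1 (SD, n = 9), a log2 difference of -1.03 (SE 0.29, 95% interval -1.64 to -0.42, limma adjusted p = 0.0423; edgeR adjusted p = 0.0543). Without bloom 5, 6 and 9 the difference was -0.51 (SE 0.14, limma adjusted p = 0.0663). The non-bloom values were tight, with a coefficient of variation of 14.2%, the lowest among the 10 genes after CACNA1D. An unnamed protein-coding row lies inside the CACNA2D3 span.

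CACNA2D1 encodes alpha-2-delta-1, which also takes part in the formation of excitatory synapses. Its values went from 40.6 through 65.0 to 93.9 in non-bloom dolphins and from 9.57 through 37.0 to 64.6 in bloom dolphins. All 9 bloom dolphins lay below the non-bloom median and 5 below every non-bloom dolphin, with bloom 1 the highest of the season. The log2 difference, -1.07 (SE 0.35, 95% interval -1.80 to -0.34, limma adjusted p = 0.0560), missed the threshold. It was -0.43 (SE 0.20, limma adjusted p = 0.205) without bloom 5, 6 and 9.

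Both calls depended on which libraries were included. With 1 library left out, CACNB4 passed in 7 of 17 fits and CACNA2D3 in 5, while their log2 differences stayed between -1.69 and -1.24 and between -1.15 and -0.85. The CACNB4 call was lost when the library left out was non-bloom 1, 2, 5, 6, 7 or 8, or was bloom 2, 5, 6 or 7, with limma adjusted p up to 0.0757. For CACNA2D3 it was lost in the same fits and also without non-bloom 3 or bloom 9, with limma adjusted p up to 0.0863. CACNA2D1 passed without bloom 1, 4 or 8, where its limma adjusted p was 0.0260, 0.0360 and 0.0335. CACNA1B passed without bloom 8, with a limma adjusted p of 0.0487. The number of all genes called moved as well, between 61 and 2895.

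Among the pore-forming subunits of transmitter release, CACNA1A did not pass. It ran from 75.1 through 119 to 197 in non-bloom dolphins and from 45.0 through 113 to 169 in bloom dolphins. Only bloom 5 and bloom 9 (45.0 and 69.1) lay below the non-bloom range, and the highest value of all belonged to non-bloom 6. Its log2 difference was -0.18 (SE 0.23, 95% interval -0.67 to 0.31, limma adjusted p = 0.596), and 0.13 (SE 0.19) without bloom 5, 6 and 9.

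CACNA1B, the N-type pore of presynaptic terminals, ran from 28.6 through 45.3 to 58.4 in non-bloom and from 4.12 through 28.2 to 48.8 in bloom dolphins. Its values in bloom 5, 6 and 9 were 4.98, 4.12 and 9.14, whereas the other 6 bloom dolphins lay between 26.7 and 48.8. The log2 difference of -1.05 (SE 0.42, 95% interval -1.93 to -0.17) did not pass (limma adjusted p = 0.0912) and was -0.24 (SE 0.17) without the 3 libraries. The annotated span of CACNA1B also holds 7 other protein-coding rows, among them RPL8 and ZNF16. The sources used here do not say whether counting used strand, so reads from overlapping exons cannot be told apart.

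CACNA1E, the R-type pore, spread widely within each season, from 13.4 through 40.6 to 52.6 in non-bloom and from 1.79 through 19.0 to 38.8 in bloom dolphins. All 9 bloom dolphins lay below the non-bloom median, but non-bloom 1, 3 and 4 (24.2, 13.4 and 19.3) overlapped with bloom 2, 3 and 7 (19.0, 23.0 and 18.6). The log2 difference was -0.99 (SE 0.48, 95% interval -1.995 to 0.015, limma adjusted p = 0.147), and -0.21 (SE 0.29) without bloom 5, 6 and 9. The lowest value, in bloom 5, came from 9 reads, whose exact 95% Poisson interval of 0.819 to 3.40 covers counting error only and stays below the lowest of the non-bloom dolphins.

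Neither L-type gene passed. CACNA1D was the most even of the 10 genes in the non-bloom season, from 22.1 through 24.7 to 29.0 (coefficient of variation 9.14%). In bloom dolphins it spread from 4.18 through 20.8 to 31.3, with the highest value of all 17 in bloom 1 and the lowest 3 in bloom 5, 6 and 9. Its log2 difference was -0.61 (SE 0.30, 95% interval -1.23 to 0.0062, limma adjusted p = 0.145) and -0.066 (SE 0.11) without these 3. CACNA1C ran from 11.5 through 21.6 to 27.4 and from 4.00 through 17.4 to 25.8, a log2 difference of -0.46 (SE 0.29, 95% interval -1.07 to 0.14, limma adjusted p = 0.246). Without bloom 5, 6 and 9 it was 0.0064 (SE 0.17). The bloom 9 value of CACNA1C rested on 7 reads (4.00, exact 95% Poisson interval 1.61 to 8.24).

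Neither T-type gene passed. CACNA1G ran from 27.1 through 38.1 to 62.2 in non-bloom and from 16.5 through 38.5 to 52.7 in bloom dolphins. Bloom 6 lay at the bloom median, 38.5, and only bloom 5 (16.5) and, by a small margin, bloom 2 (26.9) lay below the non-bloom range. Its log2 difference was -0.11 (SE 0.21, 95% interval -0.56 to 0.33, limma adjusted p = 0.712). CACNA1I was at 3.58, 5.82 and 6.29 in bloom 5, 6 and 9, below the 27.2 to 45.7 of the other bloom dolphins and below the non-bloom range of 14.7 to 55.9. Its log2 difference was -0.85 (SE 0.44, 95% interval -1.78 to 0.078, limma adjusted p = 0.173), and -0.020 (SE 0.22) without the 3 libraries.

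**Figure D2:**
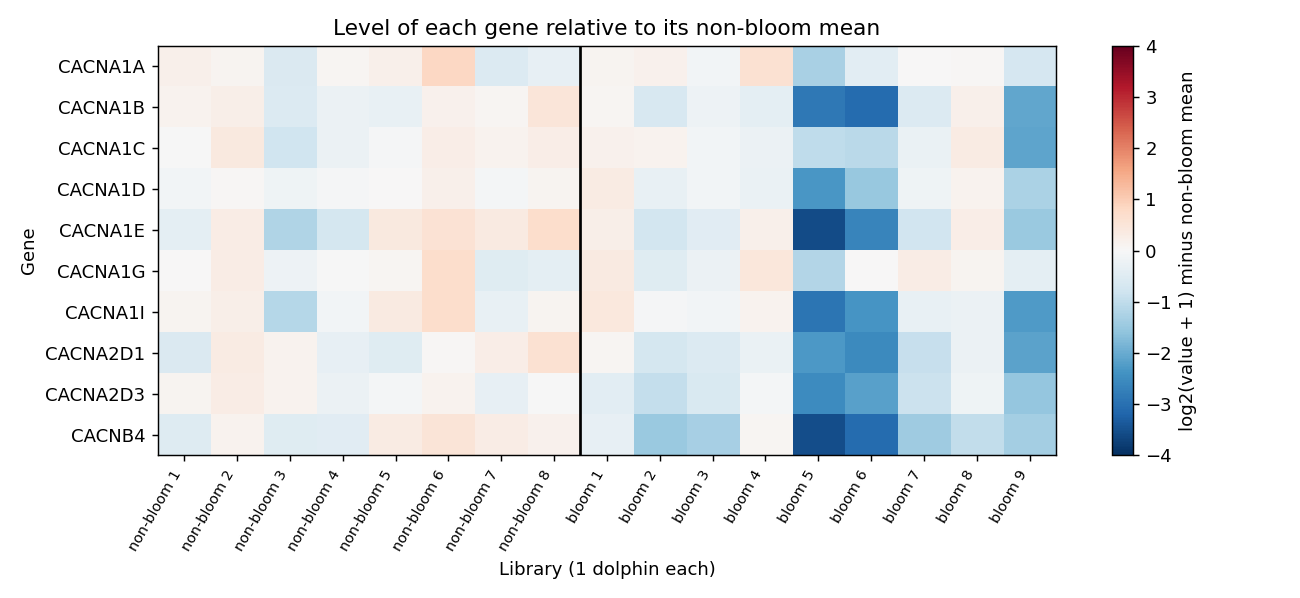
Each cell shows log2(value + 1) of a channel gene (rows) in a library (columns) minus that gene's non-bloom mean, blue for lower and red for higher. Bloom 5 and bloom 6 reached -3.54 and -3.07 for CACNB4 while CACNA1G lay at -1.16 and 0.015 in the same libraries.

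Whether the channel genes differed from each other in their season difference was tested with ratios within each dolphin, from which the scaling of a library drops out apart from the added 1. All 45 pairs of the 10 genes were compared with an exact permutation test (two-sided, all 24310 assignments of season), and p-values were adjusted over the 45 pairs. Pairs that share a gene are not independent. Of the 45, 5 passed, and all 5 set CACNA1A, CACNA1D or CACNA1G against CACNB4 or CACNA2D3. Over CACNA2D3 the other alpha-1 genes than CACNA1A and CACNA1G did not pass (exact permutation, adjusted p 0.0528 to 0.929). CACNA1B, CACNA1C, CACNA1D, CACNA1E and CACNA1I differed there by -0.019, 0.56, 0.42, 0.039 and 0.18. Over CACNB4, CACNA1B, CACNA1C, CACNA1E and CACNA1I did not pass (exact permutation, adjusted p 0.0912 to 0.215). CACNA1A over CACNA1B, both alpha-1 genes, differed by 0.87 (exact permutation, adjusted p = 0.0912). The log2 ratio of CACNA1G to CACNB4 averaged -0.17 ± 0.47 (SD, n = 8) in non-bloom and 1.21 ± 0.86 (SD, n = 9) in bloom dolphins, a difference of 1.38 (exact permutation, adjusted p = 0.0130). It ran from -0.94 to 0.34 in non-bloom and from 0.21 to 2.92 in bloom dolphins, so 8 of 9 bloom dolphins lay above the non-bloom range and bloom 4 lay inside it.

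The ratio of CACNA1A to CACNB4 differed by 1.32 (exact permutation, adjusted p = 0.0148), with 6 of 9 bloom dolphins outside the non-bloom range. Set against CACNA2D3, the ratio of CACNA1G differed by 0.92 (exact permutation, adjusted p = 0.0148) and that of CACNA1A by 0.85 (exact permutation, adjusted p = 0.0153). These 4 differences passed whichever single library was left out, with exact permutation adjusted p at most 0.0325. Without bloom 5, 6 and 9 they were 0.99, 1.04, 0.59 and 0.64, and the first 3 passed (exact permutation, adjusted p = 0.0450 each) while CACNA1A over CACNA2D3 did not (exact permutation, adjusted p = 0.0637). The fifth pair, CACNA1D over CACNB4, differed by 0.88 (exact permutation, adjusted p = 0.0422). It passed in 4 of 17 fits with 1 library left out, and its adjusted p was up to 0.0769 (exact permutation) without non-bloom 2, 3, 5, 6, 7 or 8 or bloom 1, 2, 3, 5, 6, 7 or 8. Without bloom 5, 6 and 9 together CACNA1E and CACNA1I over CACNB4 also passed, with differences of 0.71 and 0.89 (exact permutation, adjusted p = 0.0450 each).

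**Figure D3:**
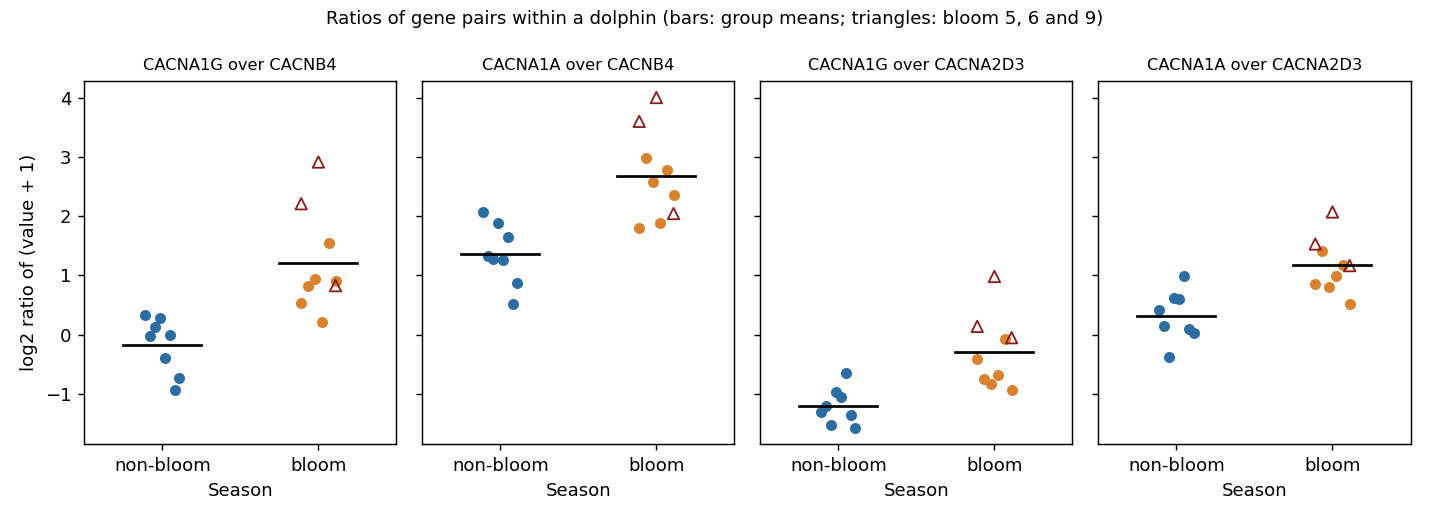
log2 ratio of (value + 1) of 4 gene pairs in each dolphin, by season, with group means as bars and bloom 5, 6 and 9 as triangles. CACNA1G over CACNB4 ran from -0.94 to 0.34 in non-bloom and from 0.21 to 2.92 in bloom dolphins, and the bloom 9 triangle sits among the other bloom dolphins in this pair.

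Levels of neuronal markers are given beside the channel genes. The summed level of 13 pan-neuronal markers ran from 9371 to 15995 in non-bloom dolphins and from 2807 to 12077 in bloom dolphins, with bloom 5 and bloom 6 at 2807 and 4394. Bloom 9 lay at 8432, below the non-bloom range and inside the 6686 to 12077 of the other 6 bloom dolphins. Within that sum SYP, ENO2, SYT1 and NEFH lay below all of the other 6, and NEFM and ELAVL3 above all of them. In bloom 9, 8 of the 10 channel genes were among their lowest 3. Of these 13 markers 1 was called lower (7.69%, beside 4.69% of all genes), 12 had negative differences, and their median was -0.67. The 10 excitatory markers summed to between 2033 and 3497 in non-bloom and between 613 and 3060 in bloom dolphins. Of these 1 was called lower (10%, and 0 without bloom 5, 6 and 9), with a median of -0.55. The sum in bloom 9, at 2124, lay inside the non-bloom range. The 10 interneuron markers summed to between 295 and 729 and between 58.2 and 420. Of these 5 were called lower (50%: GAD1, GAD2, SLC32A1, LHX6 and DLX1), with a median of -1.21. edgeR called 4 of the 5, not DLX1 (edgeR adjusted p = 0.101), beside 2.55% of all genes called lower. When bloom 5, 6 and 9 were left out limma called SLC32A1 and LHX6, beside 0.659% of all genes, and the median was -0.68. All of these neuronal markers that were found had reads.

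When the fit included the mean log2 level of those pan-neuronal genes, 0 of the 10 channel genes passed, beside 0.0295% of all genes. CACNB4 then differed by -0.52 (SE 0.22, 95% interval -0.98 to -0.062, limma adjusted p = 0.476) and CACNA2D3 by -0.32 (SE 0.16, 95% interval -0.66 to 0.022, limma adjusted p = 0.554). CACNA2D1 differed by -0.40, CACNA1B and CACNA1C by -0.12 each, and the other 5 genes had positive differences, up to 0.32 for CACNA1A. The marker level itself was lower in many bloom dolphins, so the fit cannot tell a season difference from one in the share of neuronal RNA.

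**Figure D4:**
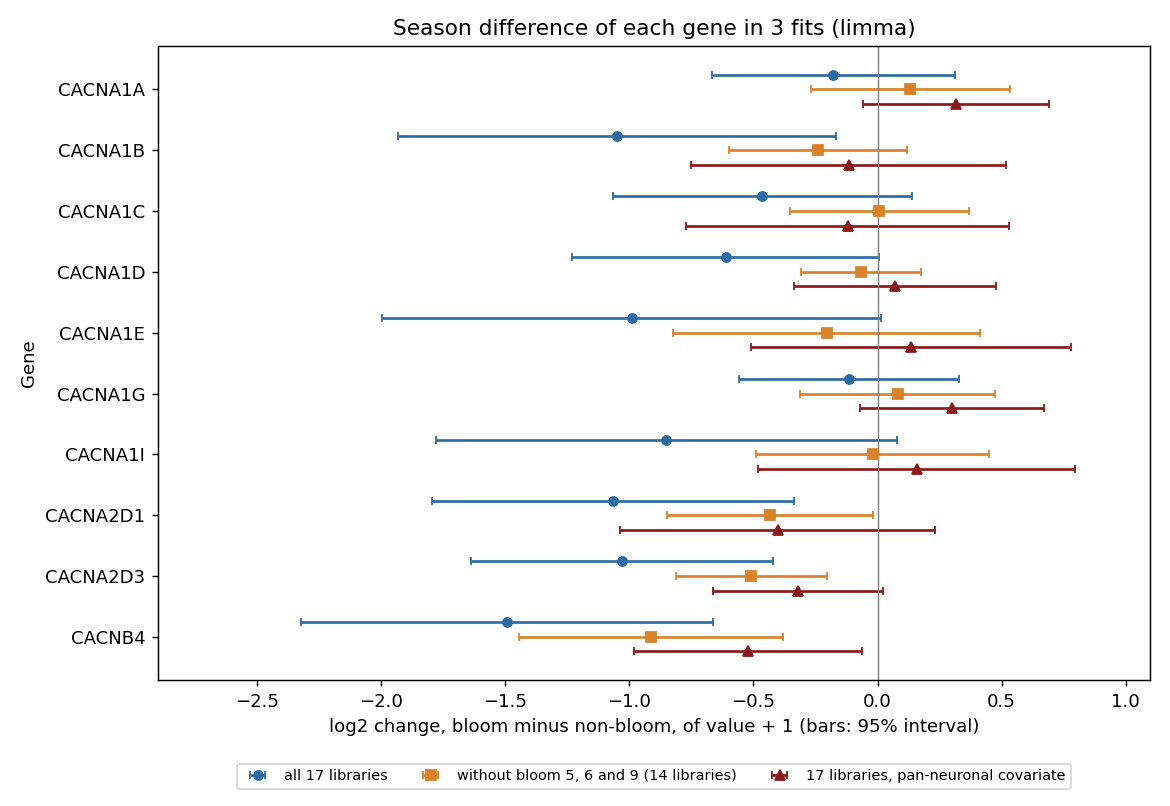
Season difference of each gene (log2 scale, bloom minus non-bloom) with its 95% interval in 3 limma fits: all 17 libraries, the 14 without bloom 5, 6 and 9, and all 17 with a term for pan-neuronal marker level. The CACNB4 interval stayed below 0 in all 3 fits, with estimates of -1.49, -0.91 and -0.52, while its adjusted p passed in the first fit only; the CACNA1A and CACNA1G intervals included 0 in all 3.

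Oligodendrocyte and astrocyte markers had positive differences, 9 of 9 in each list. Calls in the lists below stand beside 4.69% of all genes called lower and 4.47% higher by limma, and 2.55% and 6.07% by edgeR. At an unadjusted p under 0.05 limma had 19.1% of all genes lower and 16.4% higher. The sum of 9 oligodendrocyte markers ran from 1671 to 7980 in non-bloom dolphins and was 18080, 19143 and 14103 in bloom 5, 6 and 9. The other 6 bloom dolphins lay between 4336 and 8628. MBP alone made up 16198, 15918 and 11377 of the sums in bloom 5, 6 and 9. The mean log2 level of the 9 markers there was 7.41, 8.56 and 7.91, against 6.37 to 8.38 in non-bloom dolphins. In bloom 5 MBP, ERMN and OPALIN lay above their non-bloom ranges, and MAG, CLDN11 and MYRF lay below theirs. Of these 9 markers limma called MOG and ERMN higher; edgeR called ERMN and not MOG (edgeR adjusted p = 0.0568), and neither passed without bloom 5, 6 and 9 (limma adjusted p = 0.0565 and 0.0537). The sum of 9 astrocyte markers ran from 323 to 1838 in non-bloom and from 401 to 6862 in bloom dolphins. It was 6708, 5226 and 6862 in bloom 5, 6 and 9, of which GFAP alone held 4818, 1969 and 6021. In bloom 9 GFAP, ALDH1L1 and ACSBG1 lay above their non-bloom ranges and the rest of the list inside theirs. Of the 9 astrocyte markers 0 were called by limma (4 higher at an unadjusted p under 0.05) and 2 were called higher by edgeR. For endothelial markers the sums were 271 to 817 and 173 to 2450 (9 markers, SLCO1A2 called higher, limma adjusted p = 0.0799 without the 3 libraries). Those of pericytes and smooth muscle were 56.2 to 267 and 74.8 to 288 (10 markers, KCNJ8 called higher, limma adjusted p = 0.102 without them). Of 3 markers of oligodendrocyte precursors PDGFRA was called lower by limma only (edgeR adjusted p = 0.0751; limma adjusted p = 0.136 without them), while SOX10 and GPR17 had differences of 0.59 and -0.37 that did not pass. The 7 microglial markers summed to 1.91 to 279.8 in non-bloom dolphins (median 6.48) and to 0.537 to 32.1 in bloom dolphins (median 4.00). All 5 that were tested had negative differences with a median of -1.43; limma called 0, with 2 lower before adjustment of p, whereas CSF1R was called lower by edgeR (edgeR adjusted p = 0.0372). Skeletal muscle markers summed to at most 44.9. The 6 blood markers summed to 148 to 1087 in non-bloom and 24.1 to 2449 in bloom dolphins, the highest in bloom 9. Of these the neutrophil genes S100A9 and S100A12 were called lower, S100A9 not without the 3 libraries (limma adjusted p = 0.0739). The red-cell genes HBA, HBB and ALAS2 did not pass, and their differences were -0.47, -0.43 and -0.53 by limma and 0.74, 0.30 and 0.071 by edgeR. The part of these cells in the channel results was not tested beyond the fits with a covariate.

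The remaining genes named as parts of the channel gave 2 further calls. Together with the 10 genes, 24 genes with such names were found by symbol, 7 of them CACNG genes, and 23 were tested. Of these 4 (17.4%) were called lower and 0 higher, beside 4.69% and 4.47% of all genes. Negative differences numbered 22, with a median of -0.47 against -0.0034 over all genes. Without bloom 5, 6 and 9 limma called 1 lower (0.659% of all genes), and edgeR on all libraries called 1 lower (2.55%). In both cases the gene was CACNG5, and none of the alpha-1, alpha-2-delta or beta genes passed. Besides CACNB4 and CACNA2D3 the 4 were CACNA2D2, another alpha-2-delta subunit, and CACNG5. The latter is a transmembrane AMPA receptor regulatory protein named for its likeness to the muscle channel's gamma subunit. CACNG5 averaged 19.3 ± 4.45 (SD, n = 8) in non-bloom and 7.86 ± 4.96 (SD, n = 9) in bloom dolphins and fell, with a log2 difference of -1.47 (SE 0.38, limma adjusted p = 0.0341; edgeR adjusted p = 0.0469). Of the 9 bloom dolphins 8 lay below every non-bloom dolphin, and it also passed without bloom 5, 6 and 9 (-0.77, SE 0.18, limma adjusted p = 0.0372). CACNA2D2 fell from 13.4 ± 5.99 to 5.96 ± 3.84, a log2 difference of -1.16 (SE 0.36, limma adjusted p = 0.0496), and passed neither by edgeR (edgeR adjusted p = 0.0609) nor without these libraries (-0.62, limma adjusted p = 0.201). Of the alpha-1 genes outside the 10, CACNA1F, the L-type pore of the retina, had the smallest p at 6.49 ± 1.52 and 9.26 ± 5.38 (log2 difference 0.37, limma adjusted p = 0.209).

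Proteins that bind, anchor or regulate the channels, at the release site and elsewhere, were examined as a list of 20, of which 16 were tested. Of these 3 were called lower and 1 higher, beside 4.69% and 4.47% of all genes, with a median of -0.46. RIMS2, an active zone scaffold that tethers calcium channels near vesicles, fell from a mean of 114 ± 23.0 (SD, n = 8) in non-bloom to 55.7 ± 26.4 (SD, n = 9) in bloom dolphins, with a log2 difference of -1.19 (SE 0.30, limma adjusted p = 0.0323; edgeR adjusted p = 0.0355). It passed without bloom 5, 6 and 9 too (-0.84, limma adjusted p = 0.0365). RIMS1, its close relative, fell by 0.86 on the log2 scale (limma adjusted p = 0.0443) and passed neither by edgeR (edgeR adjusted p = 0.0526) nor without the 3 libraries (limma adjusted p = 0.0815). STAC3, an adaptor of the L-type channel known from skeletal muscle, rose from 0.333 ± 0.458 to 2.97 ± 1.99. Every bloom dolphin lay above every non-bloom dolphin, but by a small margin, with a highest non-bloom value of 1.43 and a lowest bloom value of 1.45. The log2 difference of STAC3 was 1.52 (SE 0.23, limma adjusted p = 0.00612, edgeR adjusted p = 0.0117), at a level of at most 37 reads in a library. It was 1.26 (SE 0.18, limma adjusted p = 0.00378) without bloom 5, 6 and 9.

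Of 19 tested genes that store, release and pump calcium, 1 was called lower and 1 higher, close to the 4.69% and 4.47% over all genes, with a median of -0.53. ITPR1, the main neuronal inositol trisphosphate receptor, fell from 344 ± 68.8 to 173 ± 102 (log2 difference -1.27, SE 0.37, limma adjusted p = 0.0445; edgeR did not call it, adjusted p = 0.0621). ITPR2, an isoform prominent in astrocytes, rose from 27.1 ± 10.3 to 56.1 ± 28.0 (log2 difference 0.94, SE 0.29, limma adjusted p = 0.0487, edgeR adjusted p = 0.0436). The astrocyte marker sums given above were mostly GFAP in bloom 5 and 9. Neither ITPR1 nor ITPR2 passed without bloom 5, 6 and 9 (limma adjusted p = 0.0827 and 0.209). Of 16 tested genes of calcium-dependent signalling and buffering 1 was called lower (6.25%, beside 4.69% over all genes) and 0 higher, 15 differences were negative and the median was -0.90. The called gene, PPP3CB, a catalytic subunit of calcineurin, fell from 318 ± 51.7 to 169 ± 101 (log2 difference -1.21, SE 0.37, limma adjusted p = 0.0489). It passed neither by edgeR (edgeR adjusted p = 0.0740) nor without the 3 libraries (limma adjusted p = 0.0854).

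The genes whose levels ran most like the mean of the 10 channel genes, after each was scaled to the same spread, were sought over the 14 libraries other than bloom 5, 6 and 9. They were VPS26B (Pearson r = 0.95), CELSR2 (0.95), KLHL29 (0.94), SYN3 (0.93) and AP4S1 (0.93). They were picked for the highest r among the genes tested, so no p is given. Within the 8 non-bloom libraries their r ran from 0.91 to 0.97, and within the 6 bloom libraries from 0.88 to 0.96. None of these 5 was called between the seasons, with limma adjusted p from 0.0644 to 0.118. The libraries share their scaling and their content of neuronal RNA across genes, which such a correlation includes.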

How the data were processed

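Messenger RNA libraries from 17 dolphins were analysed. Trim Galore 0.6.1 and STAR 2.5.2a are named in the submitters' processing notes; for counting tool, strand setting, build and annotation the sources used here give nothing. The authors deposited a normalised signal, with a value for each gene in each library. Divided by what 1 read is worth in its library, 100% of nonzero values came out whole within 0.01 (largest deviation 0.00029), which gave the read counts, and TMM factors recomputed from them returned the deposited scaling.

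Genes were kept by edgeR filterByExpr (minimum count 10, minimum total 15), leaving 13548 of 21265. Season was tested by limma-trend, with no other term, on log2(value + 1) and Benjamini-Hochberg adjusted over all genes; this scale understates the change of low genes. The p-values compare dolphins, 1 library each. Channel genes were matched by symbol in either name column; if several rows matched, the highest mean was taken. The members, gene lists and settings were chosen with earlier results of these data known. Genes named outside the 10 were those called in each list, up to 4 by smallest p, or else the 1 with the smallest p. The tests of ratios between channel genes were added after the values were seen, as were edgeR and the pan-neuronal covariate without bloom 5, 6 and 9. Intervals from reads are exact Poisson (95%) and take in counting error alone, because PCR copies are not independent molecules. CACNB3, CACNG8 and the list genes with no matching symbol were not analysed here, and CACNA2D4 did not pass the filter. Some called list genes are counted but not reported here by name.

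Settings tried were a pseudocount of 0.1, no filter or a value of 1 in 8 libraries, relative log expression and upper-quartile scaling, TMM without mitochondrial transcripts, edgeR, DESeq2, voom with quality weights, robust variance, 3 covariates, other thresholds and leaving out libraries. The test was also checked on simulated data. The software was edgeR 4.0.16, limma 3.58.1 and DESeq2 1.42.0, run in R 4.3.3.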

Additional observations from a re-analysis of the deposited data

Results flagged for a closer look

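CACNA1A was at 197 in non-bloom 6, while the next highest of the 8 non-bloom dolphins was at 129.5, a gap of 0.553 of the whole range of the group. It was the only value that stood apart in this way among 20 groups of values (10 channel genes in 2 seasons). Chance alone sets about 1 in 20 such groups apart if values are normally distributed. The gap was measured on the deposited values and not on the log2 scale of the tests, where it is smaller. The same library had the highest value of 4 of the 10 channel genes over all 17 dolphins and the highest mean level of pan-neuronal markers, 9.73 on the log2 scale. Leaving it out gave a log2 difference of -0.061 for CACNA1A.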

How the results depend on the processing

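The number of genes called was 1241. It was 560 with no filter, 3170 with DESeq2, 4222 with voom and 2518 with the mitochondrial ratio as a covariate. It was 4 with the pan-neuronal and 0 with the oligodendrocyte covariate. Without bloom 5, 6 and 9 it was 320, or 237 by edgeR and 53 with the pan-neuronal covariate. Adjusted p under 0.1 gave 3648 and under 0.01 gave 21. With each library left out in turn it ran from 61 to 2895. The cause of these shifts was not tested.

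Channel genes called lower numbered 2 in the fit reported and 4 at adjusted p under 0.1, beside 4.69% and 14.9% of all genes. They numbered 0 with no filter (228 of 17542 genes called lower) and by edgeR (2.55%). They numbered 0 with the pan-neuronal or oligodendrocyte covariate too, where 0 of all genes were called lower. The same held at adjusted p under 0.01 and in the 3 fits without bloom 5, 6 and 9 (0.659% of all genes by limma with no covariate). With each library left out the number of channel genes ran from 0 to 4, and the total over all genes moved as well, as given above. Without non-bloom 1 or non-bloom 2 it was 0, beside 102 of 13641 and 7 of 13644 genes called lower. With the oligodendrocyte covariate CACNB4 differed by -1.68 (SE 0.53) and CACNA2D3 by -1.02 (SE 0.39), with limma adjusted p of 0.236 and 0.239. The number was 2 under the 3 other scalings, the pseudocount of 0.1, robust variance and the filter of 1 in 8 libraries, where 3.16% to 5.5% of all genes were called lower, and 3 with DESeq2, voom and the mitochondrial covariate (9.04%, 16.5% and 10.5%). None was called higher in any of these settings (limma, edgeR or DESeq2), and at an unadjusted p under 0.05 the limma fit had 4 lower and 0 higher, beside 19.1% and 16.4% of all genes.

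Differences that changed sign did so in fits that left out bloom libraries or held the neuronal level fixed, and none of these passed. With the pan-neuronal covariate they were 0.317 for CACNA1A, 0.0705 for CACNA1D, 0.135 for CACNA1E, 0.301 for CACNA1G and 0.157 for CACNA1I. Without bloom 5, 6 and 9 they were 0.133 for CACNA1A, 0.0064 for CACNA1C and 0.0819 for CACNA1G, and by edgeR 0.0866 for CACNA1A and 0.0784 for CACNA1G. With both changes they were 0.477 for CACNA1A, 0.061 for CACNA1C, 0.0263 for CACNA1D, 0.0957 for CACNA1E, 0.469 for CACNA1G and 0.305 for CACNA1I. Without bloom 5 CACNA1G was at 0.0162, and its differences with 1 library left out ran from -0.186 to 0.0162. CACNA1B, CACNA2D1, CACNA2D3 and CACNB4 kept a negative sign in every alternative run. Depth limits bloom 9 most, where 3 reads were worth 1.71, against 0.158 to 0.597 elsewhere.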
